A study of Zea mays with 9 samples.

Results

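The 200 genes described here were the most specific to wild-type P3 in a maize shoot apex data set. P3 is the third youngest leaf primordium, and it was compared with the central zone (CZ), the tip of the shoot apical meristem that holds the stem cells. Raw counts were scaled to RPM (the count of a gene per 1000000 counts of its library), and all genes were ranked by the log2 ratio of mean wild-type P3 to mean wild-type CZ after adding 1 RPM to both. The first 200 of 45343 ranked rows were taken, and the table has 45498 rows in all, 150 of them miRNA precursor models that were not ranked. The wild-type values therefore chose the genes and are given as a description, without a test. The *dcl1-2* libraries took no part in the choice.

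The 8 RNA-seq libraries hold 2 biological replicates each of wild-type P3, *dcl1-2* P3, wild-type CZ and *dcl1-2* CZ, dissected by laser from apices of 14-d-old B73 seedlings, with tissue from at least 6 apices in each replicate. *dcl1-2* is a hypomorphic allele of *DCL1*, which encodes the Dicer-like enzyme that cuts miRNAs out of their precursors. It had been crossed into B73 for several generations, and the wild-type seedlings were siblings. Total counts were 24753974 to 30327603 in the CZ and 8626824 to 10328582 in P3. Both mates of a P3 read pair may have been counted, in which case P3 counts exceed the number of fragments and their counting precision is lower than the totals imply. The P3 libraries were paired-end and the CZ libraries single-end, so the tissue and the library layout cannot be told apart in any comparison of P3 with the CZ. RNA had been amplified linearly, RPM is not scaled to gene length, and levels are therefore compared between libraries. An order of genes by RPM is an order of counts and not of transcript number. In such tissue samples, fewer cells of a type and less RNA per cell cannot be told apart.

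A leaf begins as a group of cells on the flank of the meristem that switch off the class I KNOX homeobox genes, which keep meristem cells undifferentiated, and switch on YABBY and other polarity genes. By the P3 stage the maize primordium is a hood around the apex in which an upper and a lower side, a margin and the first vascular strands form while cells still divide. Genes of growing walls, epidermal surface lipids, plastids and defence compounds come on during these stages. The tissues were told apart by *kn1* and by the sum of 4 YABBY genes, but not by every polarity gene. *kn1* (GRMZM2G017087), the class I KNOX gene of the meristem, was at 969.5 to 1215 RPM in the 4 CZ libraries and at 2.07 to 5.13 RPM in the 4 P3 libraries. None of the 10 KNOX genes was among the 200. 4 YABBY genes outside the 200 (*YAB3*, *YAB5*, *YAB6* and *YAB11*), which are not the whole family, summed to 49.6 to 63.1 RPM in P3 and to 0.0404 to 10.1 RPM in the CZ. *YAB6* taken alone did not separate the tissues, with 0.931 to 7.65 RPM in P3 and 0 to 2.97 RPM in the CZ. All 14 listed YABBY and polarity genes outside the 200 summed to 1012 to 1137 RPM in P3 and to 1409 to 1772 RPM in the CZ. Of these, *lbl1*, *rld2* and *phb3* were higher in every CZ library than in any P3 library, while *kan1*, *mwp1* and *rs2* were lower. The *DCL1* transcript (GRMZM2G040762) was at 73.2 and 100.6 RPM in P3 of wild type and at 140.7 and 136.3 RPM in *dcl1-2* P3, with 65.4, 62.2, 84.0 and 91.7 RPM in the wild-type and then the *dcl1-2* CZ libraries. It was higher in *dcl1-2* P3 by adjusted p alone, with a log2 fold change of 0.74 (standard error 0.15, edgeR adjusted p = 0.0114). The CZ change of 0.43 did not pass (SE 0.14, edgeR adjusted p = 0.272).

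The 200 genes were spread over a wide range of levels. Their mean RPM in wild-type P3 ran from 16.0 to 1741, with a median of 55.4, and 58 of them reached 100 RPM. The value used to rank them ran from 7.27 at the top to 4.07 at the last place, with a median of 4.53. Just inside the limit were GRMZM2G125268 at 4.08, GRMZM2G055435 at 4.07 and GRMZM2G137064 at 4.07, and just outside were GRMZM2G179677 at 4.06, AC207628.4_FG011 at 4.06 and GRMZM5G894234 at 4.05. There was thus no gap at the last place.

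Some of the 200 rows describe the same stretch of genome. 26 of them overlapped another one of the 200, in 13 pairs, which leaves 187 separate loci. In 2 pairs, GRMZM2G339107 with GRMZM5G845891 and GRMZM2G136859 with GRMZM2G437776, both rows held the same count in all 8 libraries, so that they are 1 measurement each. In addition, 42 of the 200 overlapped a row outside the list. Whether the authors counted by strand is not given in the sources used here, and reads of overlapping models cannot be assigned to one of them.

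Compared with the 21573 genes whose 8-library mean reached 1 RPM, the 200 were shorter and less often named. Their gene models had a median length of 2193.5 bp against 3632 bp. A name in the RefSeq table was found for 112 of them, or 56%, against 64.5%. Models predicted from single sequenced clones, with identifiers that start in AC or EF, made up 8% of the 200 against 3.13%. They overlapped another row of the table in 32.5% of cases against 24.1%. By chromosome, 40 of the 200, or 20%, lay on chromosome 1, which holds 16.0% of the genes, and 10, or 5%, on chromosome 4, which holds 10.2%. These are counts without a test.

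In the P3 libraries the 200 genes together took up a small share of the counts. They summed to 26977 and 22966 RPM in the wild-type P3 libraries and to 25450 and 25968 RPM in the *dcl1-2* P3 libraries. In percent of the counts that is 2.50 ± 0.284 in wild type and 2.57 ± 0.0366 in *dcl1-2* (mean ± SD, n = 2 libraries each), and the wild-type libraries lay on both sides of the *dcl1-2* libraries. The 10 genes of highest RPM made up 37.9% of the wild-type sum. Wild-type P3 replicate 1 was above replicate 2 in 147 of the 200, or 73.5%, against 43.6% of all genes at 1 RPM or more. The fold between the replicates had a median of 1.20 in wild type and of 1.13 in *dcl1-2*, and did not exceed 2.28 and 2.22 for any of the 200.

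**Figure D1:**
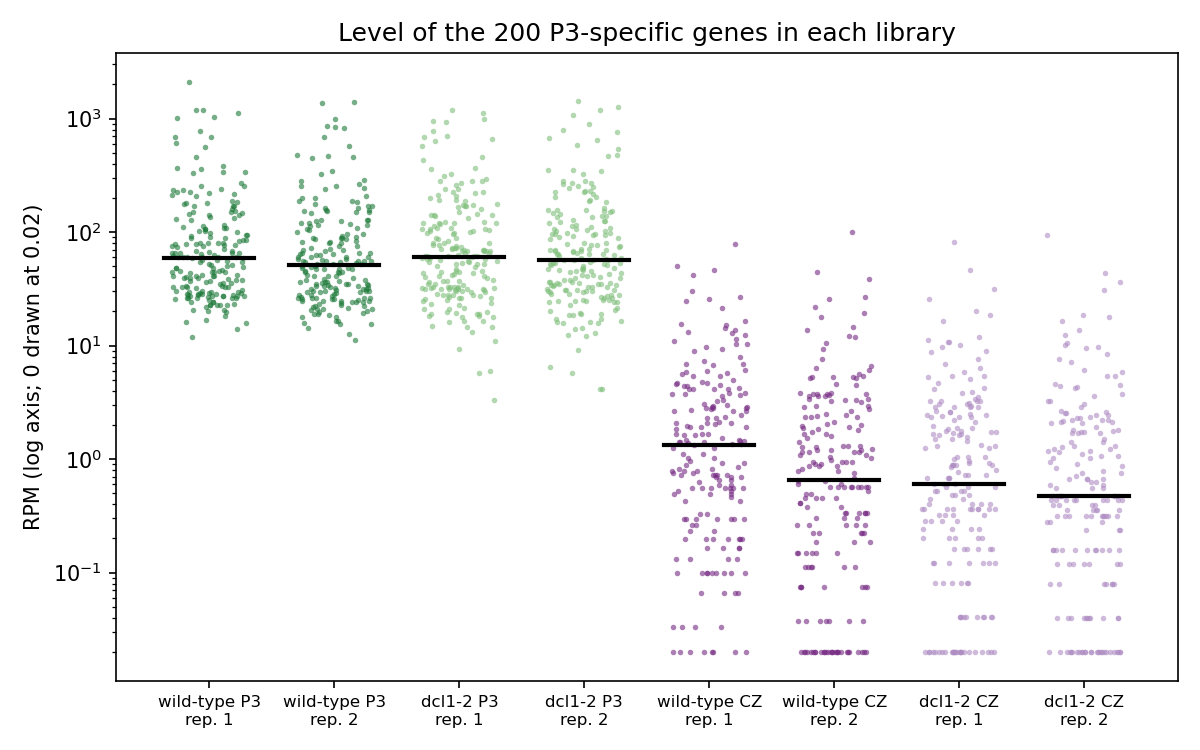
Level of each of the 200 genes (RPM, log axis) in the 8 libraries, with 1 point per gene and a bar at the median; genes without a count are drawn at the foot. The medians are 51.6 to 60.9 RPM in the 4 P3 libraries and 0.476 to 1.34 RPM in the 4 CZ libraries.

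In the CZ the same genes summed to 827 and 605 RPM in wild type, and to 540 and 522 RPM in *dcl1-2*. In percent of the counts that is 0.0716 ± 0.0157 in wild type and 0.0531 ± 0.00131 in *dcl1-2* (mean ± SD, n = 2 libraries each), with both wild-type libraries above both *dcl1-2* libraries. Relative to its own mean in wild-type P3, the median gene was at 2.17% and 1.32% in the wild-type CZ libraries and at 1.24% and 0.973% in the *dcl1-2* CZ libraries, but at 104% and 101% in the *dcl1-2* P3 libraries. The number of the 200 with no count at all was 8 and 28 in the wild-type CZ libraries and 26 and 27 in the *dcl1-2* CZ libraries. It was 0 in every P3 library, which in wild type follows from the choice of genes that are high there. The P3 libraries are less deep than the CZ libraries. A level of 1 RPM was reached by 107, 85, 80 and 73 of the 200 in the wild-type and then the *dcl1-2* CZ libraries. AC209206.3_FG004 and GRMZM2G009735 had no count in any CZ library. Against 3 counts over the 4 CZ libraries, which is 0.0281 RPM, their mean level over the P3 libraries was at least 622-fold and at least 548-fold higher. Such limits cover counting error only, as the reads carry no molecular identifiers.

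At the other end, 10 of the 200 stayed at 10 RPM or more in every CZ library. The highest in RPM was GRMZM2G069911, which had 2121 and 1360 RPM in wild-type P3, with 1129 and 1438 RPM in *dcl1-2* P3, 79.2 and 100.4 RPM in wild-type CZ and 82.4 and 95.1 RPM in *dcl1-2* CZ. GRMZM2G109550 followed with 991 to 1408 RPM in P3 and 25.9 to 30.6 RPM in the CZ, then AC212565.3_FG001 with 1001 to 1198 RPM in P3 and 31.5 to 44.8 RPM in the CZ, and GRMZM5G817178 with 759 to 1192 RPM in P3 and 38.6 to 46.7 RPM in the CZ. These genes were therefore not absent from the CZ. The ratio of mean wild-type P3 to mean wild-type CZ among these 10 was 18.4 to 47.0.

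The first question was whether the P3 pattern, found in wild type, was also present in the *dcl1-2* libraries that had no part in choosing the genes. In *dcl1-2*, all 200 were higher in P3 than in the CZ (edgeR quasi-likelihood test, adjusted p under 0.05 over 22846 genes and a log2 fold change of at least 1), against a background of 28.6% of all genes tested. The log2 fold change had a median of 6.51 and quartiles of 5.38 and 7.91, and the median of all genes tested was 0.03. The largest adjusted p among the 200 was 0.00797. Of the 200, 121 passed the level filter of this test through P3 alone, where they are high, so that a call in the other direction was hardly possible for them. The other 79 reached 1 RPM in the *dcl1-2* CZ as well, and all 79 were called higher, with a median log2 fold change of 5.21 and a lowest value of 2.17. Both *dcl1-2* P3 libraries were above both *dcl1-2* CZ libraries for all 200, against a background of 45.5% of the genes tested. The smallest separation was that of GRMZM2G105348, whose lower P3 library was 3.98-fold above its higher CZ library.

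**Figure D2:**
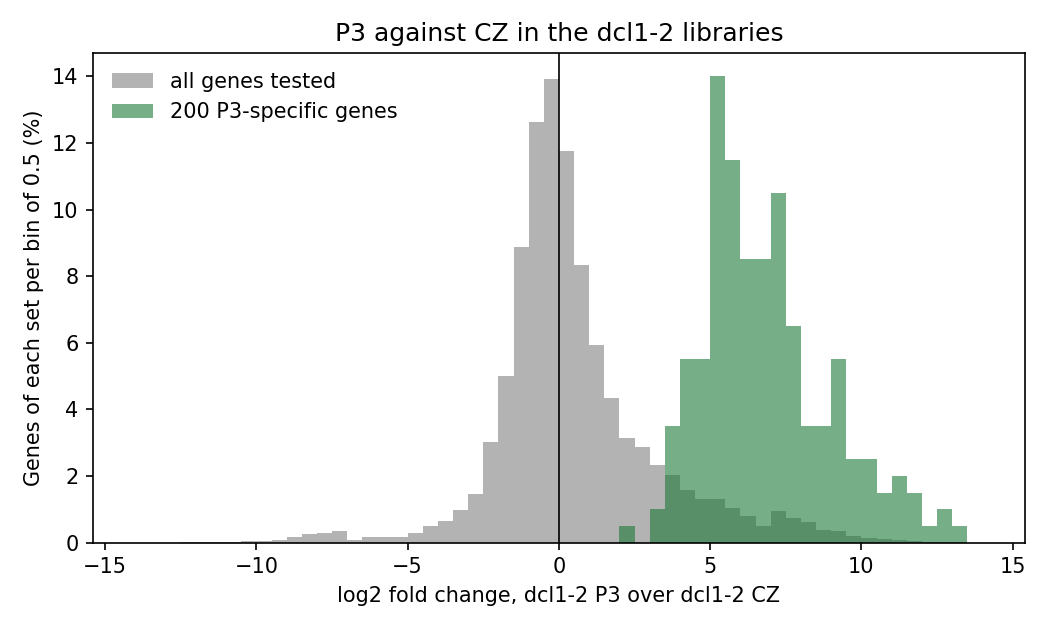
Log2 fold change of *dcl1-2* P3 over *dcl1-2* CZ on the x axis and the percent of genes in each bin on the y axis, for all 22846 genes tested (gray) and for the 200 genes chosen on wild type (green). All genes are centred near 0 with a median of 0.03, and the 200 lie between 2.17 and 13.4.

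12 of the 200 had no count in either *dcl1-2* CZ library, so that their fitted fold changes are no measure of size. Against 3 counts over both libraries, or 0.0600 RPM, they were at least 245-fold to at least 1368-fold higher in *dcl1-2* P3. Setting these genes to their limits left the median of the 200 at 6.51. The highest limit belonged to *GRAS19* (GRMZM2G172657), a transcription factor gene of the GRAS family.

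Ranking the *dcl1-2* libraries by the same measure put 111 of the 200, or 55.5%, back into the first 200, and 159 into the first 400. The median gene of the list had rank 178 of 45343 in *dcl1-2*. Only 5 fell beyond rank 1000, among them GRMZM2G105348 at rank 3770 and GRMZM5G872392 at rank 3125, which are described with the P3 comparison.

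Only 22 of the 200 had a name in the RefSeq table other than a locus number, a share that was not counted for all genes. They are shown by library in the plot of named genes. A gene without such a name can still have a known role, as has the *AGO1* gene described below. Transcription factors were the largest named group, with 9 of the 200, or 4.5%, against 1.20% of the genes at 1 RPM or more that matched the same symbol patterns. The 9 include a plastid sigma factor gene. Of the 279 tested genes on that list, 101 were higher and 66 lower in *dcl1-2* P3 than in *dcl1-2* CZ. Their median log2 fold change was 0.24, and the backgrounds over all genes tested were 28.6% higher and 21.4% lower.

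*yab9* (GRMZM2G074543, chromosome 5, 23572912 to 23577090 in B73 RefGen_v3), a YABBY gene of the leaf, had 159 and 106 RPM in wild-type P3, with 145 and 136 RPM in *dcl1-2* P3, 2.64 and 3.57 RPM in wild-type CZ and 2.59 and 2.46 RPM in *dcl1-2* CZ. All P3 libraries were far above all CZ libraries, and the genotypes overlapped within P3. In the *dcl1-2* libraries its log2 fold change between P3 and the CZ was 5.72 (SE 0.17; edgeR, adjusted p = 4.65e-11). *IG1* (GRMZM2G118250, chromosome 3, 169217636 to 169220962), a LOB domain gene of the *AS2* family, which acts in leaf polarity in *Arabidopsis*, had 127 and 87.7 RPM in P3 of wild type and 119 and 136 RPM in *dcl1-2* P3. In the CZ it was uneven, with 7.88 and 2.63 RPM in the wild type against 5.82 and 1.70 RPM in *dcl1-2*, and in both genotypes the library numbered 1 was the higher. Its log2 fold change between the tissues in *dcl1-2* was 5.01 (SE 0.36; edgeR, adjusted p = 1.04e-07). Of the 15 tested genes on the list of YABBY and polarity genes, these 2 included, 10 were higher in *dcl1-2* P3 than in *dcl1-2* CZ and 2 were lower, with a median log2 fold change of 5.51. Of the KNOX genes, 0 of 9 were higher and 7 were lower, with a median of −4.29. The backgrounds over all genes are those given above, 28.6% higher and 21.4% lower.

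4 basic helix-loop-helix transcription factor genes were in the list, and their CZ levels varied between libraries. *bHLH105* (GRMZM2G082586) had 48.5 and 47.3 RPM in wild-type P3, with 45.3 and 52.8 RPM in *dcl1-2* P3, 2.04 and 1.16 RPM in wild-type CZ, and 0.0404 and 0 RPM in *dcl1-2* CZ. Its genotypes overlapped in P3, and the *dcl1-2* CZ value rests on 1 count, which puts *dcl1-2* P3 2450-fold higher with a 95% counting interval of 440 to 96761. *bHLH88* (GRMZM2G350165) had 33.7 to 52.3 RPM over the P3 libraries and 1.42, 0, 0.121 and 0 RPM in the CZ libraries. *bHLH161* (GRMZM2G045883) had 25.7 to 35.8 RPM in P3 and 0.725, 0.150, 0.121 and 0.119 RPM in the CZ. *bHLH33* (GRMZM2G015666) had 47.1 to 76.0 RPM in P3 and 2.80, 1.62, 0.606 and 0.0793 RPM in the CZ. For all 4 the highest CZ value was that of wild-type replicate 1. *MYBR32* (GRMZM2G088524), a MYB-related gene, was more even in the CZ, with 5.44, 3.16, 5.05 and 5.39 RPM there and 109 to 179 RPM in P3.

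*GRAS19* (chromosome 7, 161902122 to 161904577) had the widest ratio between CZ replicates of those among the 200 with counts in both. It had 55.9 and 64.7 RPM in wild-type P3, with 83.7 and 80.6 RPM in *dcl1-2* P3, 4.68 and 0.0376 RPM in wild-type CZ, and no count in both *dcl1-2* CZ libraries. The wild-type CZ mean of 2.36 RPM is thus the value of 1 library. *sig6* (GRMZM2G144196), which encodes a sigma factor of the plastid RNA polymerase, had 23.1 and 19.7 RPM in P3 of wild type and 16.5 and 16.2 RPM in *dcl1-2* P3, and in the CZ it had counts in wild-type replicate 1 alone, at 0.429 RPM. Against the limit of 3 counts it was at least 272-fold higher in *dcl1-2* P3 than in *dcl1-2* CZ. None of the genes that matched the photosynthesis patterns was among the 200, and they are only 0.0881% of the genes at 1 RPM or more.

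2 genes of oxylipin synthesis were in the list. Oxylipins are signals made from fatty acids and include the wound hormone jasmonate. *lox3* (GRMZM2G109130, chromosome 1, 264200949 to 264205758), a lipoxygenase gene, had 60.7 and 40.9 RPM in wild-type P3, with 65.6 and 64.1 RPM in *dcl1-2* P3, and 0.198, 0.563, 0.606 and 0.238 RPM in the CZ libraries. *aos2* (GRMZM2G002178, chromosome 1, 28925827 to 28928044), an allene oxide synthase gene, had 94.9 and 82.8 RPM in wild-type P3, with 71.0 and 79.2 RPM in *dcl1-2* P3, 4.48 and 1.16 RPM in wild-type CZ and 0.727 and 0.594 RPM in *dcl1-2* CZ. Neither passed the test between the genotypes in P3 (adjusted p = 0.279 and 0.604 from edgeR). In *dcl1-2* P3 against *dcl1-2* CZ the log2 fold change was 7.17 for *lox3* (SE 0.32; edgeR, adjusted p = 1.25e-09) and 6.74 for *aos2* (SE 0.25; edgeR, adjusted p = 2.68e-10). The list of defence and wounding patterns, which also takes in cytochrome P450 genes, had 28 of 45 tested genes higher and 6 lower in that comparison, with a median of 3.40, against the backgrounds of 28.6% and 21.4%. 4 genes of that list are among the 200 and were chosen as high in P3.

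Detoxification and secondary metabolism were represented by *chi1* and by glutathione S-transferase genes. *chi1* (GRMZM2G155329), the chalcone isomerase of flavonoid synthesis, had 54.6 and 52.5 RPM in P3 of wild type and 74.0 and 68.7 RPM in *dcl1-2* P3, with 0.476 to 0.939 RPM in the CZ. The genotypes did not overlap in P3, but the log2 fold change of 0.48 did not pass the test (SE 0.16; edgeR, adjusted p = 0.104). GRMZM2G146246, named both *GST3* and *gst4* in the RefSeq table, had 149 to 229 RPM in P3 and 2.30 to 6.83 RPM in the CZ, and it overlaps another of the 200, GRMZM5G849767. *gst28* (GRMZM2G146475) had 82.2 to 93.6 RPM in P3 and 1.74 to 3.69 RPM in the CZ. *gln2* (GRMZM2G024104), a glutamine synthetase gene, was steady in P3 at 62.8 to 69.8 RPM and had 1.91 to 4.60 RPM in the CZ.

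Wall and division genes had 3 named members. *HRGP* (GRMZM2G168651), a hydroxyproline-rich glycoprotein gene of the cell wall, was among the 10 of highest RPM, with 778 and 579 RPM in wild-type P3, with 702 and 673 RPM in *dcl1-2* P3, 50.4 and 17.8 RPM in wild-type CZ and 20.4 and 10.2 RPM in *dcl1-2* CZ. *expB3* (GRMZM2G474194), a beta-expansin gene of wall loosening, had 23.8 to 25.9 RPM in all P3 libraries, 0.923 and 0.113 RPM in wild-type CZ and no count in *dcl1-2* CZ, where the limit of 3 counts puts P3 at least 409-fold higher. *cycD1* (GRMZM2G006721), a D-type cyclin gene of cell cycle entry, had 78.6 and 69.4 RPM in wild-type P3, with 61.5 and 47.0 RPM in *dcl1-2* P3 and 2.64 to 3.42 RPM in the CZ. It was the only one of the 200 among the cell cycle and histone genes.

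One gene of miRNA action was in the list. AC209206.3_FG011, listed as an *AGO1* gene by the authors, was ranked 6. AGO1 is the protein that holds the miRNA and cuts its targets. The gene had 357 and 255 RPM in wild-type P3, with 365 and 350 RPM in *dcl1-2* P3, 2.97 and 3.79 RPM in wild-type CZ and 4.16 and 3.09 RPM in *dcl1-2* CZ. The CZ libraries of both genotypes overlapped, and the P3 change of 0.29 on the log2 scale did not pass the test (SE 0.16; edgeR, adjusted p = 0.371). It made up 0.5% of the 200, and the genes that the authors list for the miRNA pathway were 0.213% of all genes at 1 RPM or more. None of the miRNA targets they name was in the list, and these are 0.51% of the genes at 1 RPM or more. Both shares are too small to read a difference from 200 genes.

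**Figure D3:**
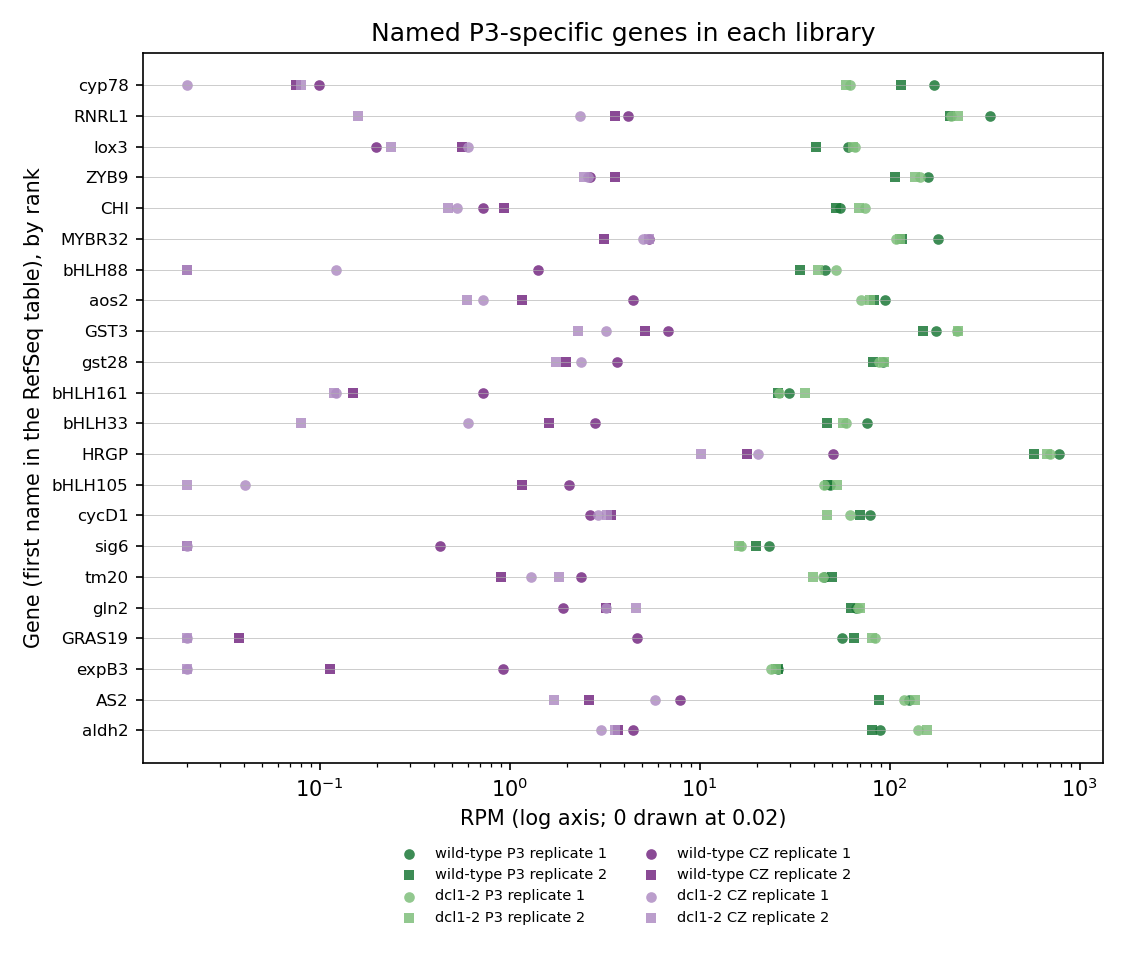
Level (RPM, log axis) of the 22 of the 200 genes that carry a name, by rank, with 1 symbol per library (circles for replicate 1, squares for replicate 2); *yab9* is drawn as *ZYB9*, *chi1* as *CHI* and *IG1* as *AS2*. The P3 libraries lie to the right of the CZ libraries for every gene, and the CZ libraries of *GRAS19* and *bHLH88* are spread more widely than those of *yab9* or *cycD1*.

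The next comparison set *dcl1-2* P3 beside wild-type P3. Most of the 200 differed little between the genotypes. 151 of them, or 75.5%, lay within 0.5 log2 units of wild type, against 72.8% of all genes tested, and the median was 0.14 against −0.02 for all. 8 of the 200 were called higher and 7 lower, or 4.0% and 3.5%, against backgrounds of 2.18% and 0.587% of the 22498 genes tested. These calls were made by edgeR at an adjusted p under 0.05 with a log2 fold change of at least 1. As the wild-type P3 libraries also chose the genes, nothing is read from these shares, and the changes and p-values of single genes given below describe these libraries and are no independent test. The 8 higher rows stand for 7 loci, because of the pair with equal counts.

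**Figure D4:**
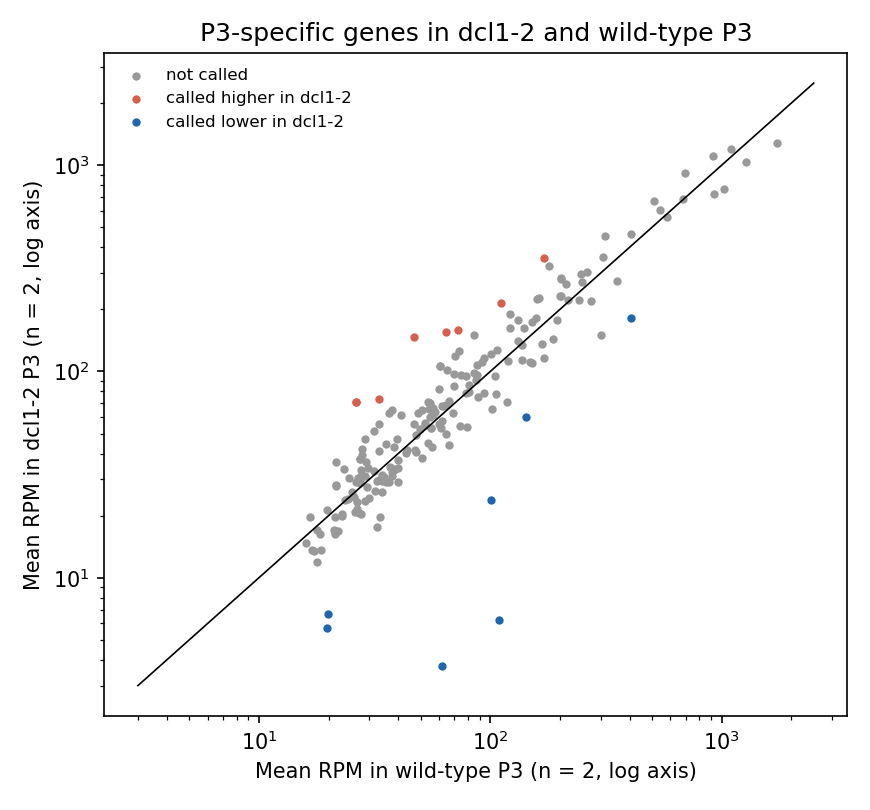
Mean RPM of each of the 200 genes in wild-type P3 (x axis) and *dcl1-2* P3 (y axis), both on log axes with n = 2 libraries, with genes called higher in red and lower in blue; the line marks equal levels. GRMZM2G105348 and GRMZM5G872392 stand far below the line at 6.22 and 3.73 RPM in *dcl1-2* P3.

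Among the higher genes was the top-ranked one, GRMZM5G892957 (chromosome 6, 3570998 to 3572992, minus strand), which has no name in the RefSeq table. It had 189 and 154 RPM in P3 of wild type and 360 and 348 RPM in *dcl1-2* P3, and 0.165, 0.0751, 0.242 and 0.159 RPM in the CZ libraries. Both *dcl1-2* P3 libraries were above both of wild type, by 2.07-fold on the means, with a log2 fold change of 1.11 (SE 0.14; edgeR, adjusted p = 0.000242). Without wild-type P3 replicate 2 its change of 0.94 fell short of the fold required. The largest rise was that of GRMZM2G062504 (chromosome 2, 57897517 to 57898904), with 49.0 and 44.7 RPM in P3 of wild type and 172 and 122 RPM in *dcl1-2* P3, a log2 fold change of 1.71 (SE 0.17; edgeR, adjusted p = 2.51e-05). It was uneven in the CZ, with 0.330, 1.28, 3.88 and 0.555 RPM. The identical rows GRMZM2G339107 and GRMZM5G845891 (chromosome 4, 178137573 to 178139706) had 26.3 RPM in both wild-type P3 libraries and 72.0 and 69.7 RPM in *dcl1-2* P3. Their change was 1.50 (SE 0.17; edgeR, adjusted p = 7.17e-05), and in the CZ they had counts in replicate 1 of each genotype alone. The calls of this pair and of GRMZM2G062504 were lost when all 8 libraries were fitted in 1 model (adjusted p = 0.155 and 0.0785).

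AC199526.5_FG002 (chromosome 3, 58903687 to 58904871) had 63.5 and 65.7 RPM in P3 of wild type and 165 and 147 RPM in *dcl1-2* P3, a log2 fold change of 1.34 (SE 0.14; edgeR, adjusted p = 4.24e-05). Its CZ libraries were also higher in *dcl1-2*, at 2.42 and 2.54 RPM against 1.42 and 1.43 RPM, but this change did not pass (adjusted p = 0.705 from edgeR). In 3 others the CZ libraries of *dcl1-2* were the lower ones. GRMZM5G841915 had 80.5 and 63.9 RPM in P3 of wild type and 161 and 157 RPM in *dcl1-2* P3. GRMZM2G055435, the gene at rank 199, had 33.3 and 32.5 RPM in the wild type against 70.9 and 76.0 RPM in *dcl1-2*. GRMZM2G082855 had 106 and 115 RPM in the wild type against 189 and 243 RPM in *dcl1-2*. Their rises of 1.20, 1.23 and 1.03 on the log2 scale had adjusted p-values of 0.000252, 0.000351 and 0.00063 from edgeR. The call of GRMZM2G082855 was lost with library totals only (0.96 on the log2 scale) and without *dcl1-2* P3 replicate 2 (0.83). *aldh2* or *rf2b* (GRMZM2G125268, rank 198), an aldehyde dehydrogenase gene, came close, with 89.0 and 80.4 RPM for wild type, with 141 and 158 RPM in *dcl1-2* and a log2 fold change of 0.89 (SE 0.15; edgeR, adjusted p = 0.00186), below the fold required.

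Of the 7 lower genes, 2 had by far the largest falls. GRMZM2G105348 (chromosome 5, 150189676 to 150191211) was 17.6-fold and GRMZM5G872392 (chromosome 5, 164854921 to 164858109) 16.5-fold lower in *dcl1-2* P3. In P3 of *dcl1-2* they nevertheless stayed above their CZ levels. GRMZM2G105348 had 5.95 and 6.49 RPM in *dcl1-2* P3 and 1.49 and 1.11 RPM in *dcl1-2* CZ. GRMZM5G872392 had 3.30 and 4.16 RPM in *dcl1-2* P3, and in the CZ it had counts in replicate 1 of each genotype alone, at 1.25 and 0.566 RPM. They had the 2 lowest ranks of all 200 in the *dcl1-2* libraries.

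*cyp78* (GRMZM2G167986, chromosome 1, 243649093 to 243651434), a cytochrome P450 gene that ranked 2, was the only named gene with a call. It had 170 and 115 RPM in P3 of wild type and 61.8 and 58.9 RPM in *dcl1-2* P3, 2.36-fold less, with a log2 fold change of −1.18 (SE 0.18; edgeR, adjusted p = 0.00117). Without wild-type P3 replicate 1 the change of −0.82 fell short of the fold required. In the CZ it was close to the limit of detection at 0.0989, 0.0751, 0 and 0.0793 RPM, and the 2 counts in *dcl1-2* CZ put *dcl1-2* P3 1507-fold higher there with a 95% counting interval of 417 to 12448. GRMZM2G150688 (chromosome 1, 256085889 to 256086777) had 109 and 92.6 RPM in P3 of wild type and 21.0 and 26.5 RPM in *dcl1-2* P3, a log2 fold change of −2.02 (SE 0.18; edgeR, adjusted p = 6.93e-06). GRMZM2G123896 (chromosome 1, 222590813 to 222592606), one of the 10 with at least 10 RPM in each CZ library, had 365 and 449 RPM in P3 of wild type and 170 and 193 RPM in *dcl1-2* P3, and 13.7 to 19.4 RPM in the CZ. Its change was −1.09 (SE 0.14; edgeR, adjusted p = 0.000197), and −0.97 without wild-type P3 replicate 2, where the call was lost.

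The remaining lower genes had the largest adjusted p-values of the 7. AC210669.3_FG001 had 25.1 and 14.4 RPM in P3 of wild type and 5.73 and 5.71 RPM in *dcl1-2* P3, and GRMZM2G048549 had 27.2 and 12.8 RPM against 9.25 and 4.16 RPM. The wild-type replicates of both genes stood far apart. Their adjusted p-values of 0.0071 and 0.0431 from edgeR rose to 0.0646 and 0.300 without wild-type P3 replicate 1, and both calls were lost there. A single model of the 8 libraries likewise lost both, at adjusted p = 0.109 and 0.245, and the call of GRMZM2G048549 was lost without *dcl1-2* P3 replicate 2 (adjusted p = 0.133). Without wild-type P3 replicate 1 the median log2 fold change of the 200 was 0.28 in place of 0.14, and the balance of higher and lower calls also moved. The share of all genes called in that setting was not counted, so nothing is read from the balance.

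The last comparison was that of *dcl1-2* with wild type in the CZ, where these genes are low. Only 109 of the 200 reached 1 RPM in either genotype and were tested. None of the 109 was higher and 2 were lower by edgeR, against backgrounds of 0.106% and 0.141% of the 19897 genes tested. At an unadjusted p under 0.05, 1 was higher and 31 were lower, where all genes tested had 4.25% higher and 6.29% lower. DESeq2 called 0 higher and 8 lower, against 0.347% and 0.709% of all genes. Without the level filter 198 of the 200 were tested by edgeR and 22 were lower, against 1.07% of all genes. Of the 109, 79 were below 0 on the log2 scale, or 72.5% against 50.4% of all genes, and the median was −0.56 against −0.0029 for all genes. The wild-type CZ libraries also entered the choice of the genes, so these values are a description.

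Both called genes had their highest CZ value in wild-type replicate 1. GRMZM5G851266 (chromosome 10, 59660107 to 59662383) had 25.8 and 4.51 RPM in wild-type CZ and 0.889 and 1.23 RPM in *dcl1-2* CZ, and 288 to 476 RPM in the P3 libraries. The log2 fold change of −3.85 in the CZ (SE 0.68; edgeR, adjusted p = 0.0483) was no longer significant without wild-type CZ replicate 1 (adjusted p = 0.158) or without *dcl1-2* CZ replicate 1 (adjusted p = 0.0608). GRMZM2G164440 (chromosome 2, 156327934 to 156329194), one of the 10 of highest RPM in P3 with 658 to 1024 RPM, had 24.6 and 13.7 RPM in wild-type CZ and 5.37 and 2.18 RPM in *dcl1-2* CZ. Its log2 fold change of −2.37 (SE 0.42; edgeR, adjusted p = 0.0483) was not significant without *dcl1-2* CZ replicate 2 (adjusted p = 0.0582).

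Wild-type CZ replicate 1 held more of the P3-specific genes than the other CZ libraries. It was the highest of the 4 CZ libraries for 106 of the 200, or 53%, against 30.1% of the genes at 1 RPM or more, while the others were highest for 27, 32 and 33. 30 of the 200, or 15%, were at least 4-fold higher in it than in replicate 2 with at least 10 counts, against 2.53% of the genes at 1 RPM or more. That background was not matched to the low CZ level of the 200. These 30 stand for 28 loci, and for 26 of the 30 wild-type CZ replicate 1 was also above both *dcl1-2* CZ libraries. The same split was not counted between the *dcl1-2* CZ libraries, where single genes also show it, such as GRMZM2G062504 with 3.88 and 0.555 RPM. For genes with counts in both replicates, the median fold between CZ replicates was 1.72 in wild type and 1.42 in *dcl1-2*. GRMZM2G140739 had 9.27 RPM in wild-type CZ replicate 1 and 0.225, 0.364 and 0.119 RPM in the others. GRMZM5G804575 (rank 11) had 6.10 RPM there and 0.376, 0 and 0.357 RPM in the others. GRMZM2G480903, which overlaps another of the 200, had 5.57 RPM there and 0, 0 and 0.476 RPM in the others. In the P3 libraries these genes had 198 to 312, 202 to 246 and 145 to 209 RPM.

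Leaf markers outside the list were set beside this. All 4 of the YABBY genes outside the list were highest in wild-type CZ replicate 1 among the CZ libraries. Their sum was 10.1 RPM there, 0.113 RPM in wild-type replicate 2 and 0.0404 and 0.0793 RPM in *dcl1-2*, and each of these other libraries had no count for 3 of the 4. These 4 do not stand for every leaf marker, as *yab9*, which is one of the 200, was highest in wild-type replicate 2. *YAB6* was at 2.97 RPM in wild-type CZ replicate 1, but only at 0.931, 7.65, 1.54 and 1.07 RPM in the P3 libraries. Of the other polarity genes that were lower in the CZ, *kan1*, *mwp1* and *rs2* were highest in wild-type replicate 1. *phb1*, with 6.06 to 10.3 RPM in P3, was highest in wild-type replicate 2, at 0.113 RPM. The KNOX genes summed to 1250 RPM in wild-type replicate 1 and to 1436, 1522 and 1445 RPM in the others. The part of leaf cells in the CZ values was not tested. Without wild-type CZ replicate 1, 58 of 97 tested genes were below 0, or 59.8%, with a median of −0.22. The median was −0.82 without wild-type CZ replicate 2.

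**Figure D5:**
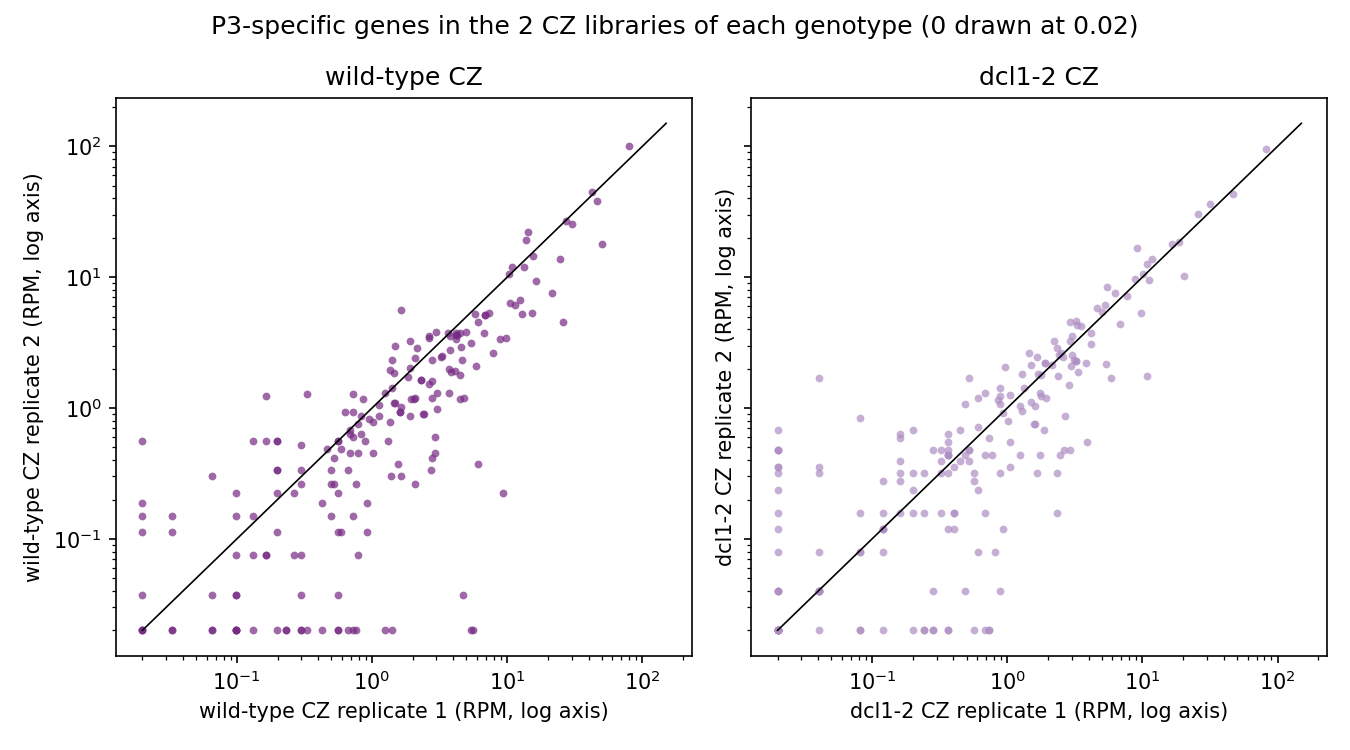
Level of each of the 200 genes (RPM, log axes) in replicate 1 (x axis) and replicate 2 (y axis) of the wild-type CZ (left) and the *dcl1-2* CZ (right), with a line at equal levels and genes without a count drawn at the edge. More points lie far to the right of the line in the wild-type CZ, where 30 genes are at least 4-fold higher in replicate 1.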

How the data were processed

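The deposited values are raw gene-level counts that the authors obtained with HTSeq from uniquely placed reads, after trimming (Trimmomatic) and TopHat alignment against B73 RefGen_v3. The deposited table also holds RPM columns of the authors, treated as a score because they do not sum to 1e6, and used only as an alternative. 1 blank count cell was read as 0, and 5 rows are not reported here, were not ranked and enter no sum of marker genes. RPM was recomputed from the counts, so 1 count is worth about 0.0330 to 0.0404 RPM for the CZ, and 0.0968 to 0.116 RPM for P3.

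Counts were tested with edgeR 4.0.16 (limma 3.58.1, R 4.3.3; quasi-likelihood, TMM) on the 4 libraries of each comparison and genes at a mean of at least 1 RPM in either group, with Benjamini-Hochberg adjustment over all genes tested. On simulated counts, a log2 change of 1 was recovered by adjusted p alone in 56%, 45% and 61% of the genes given it. The comparisons were *dcl1-2* P3 against CZ, *dcl1-2* against wild-type P3 and *dcl1-2* against wild-type CZ, over 22846, 22498 and 19897 genes. The fold cutoff of the calls was not applied there, and a rule with it can recover no more than these shares. Recovery was not counted for the genes of the list alone. Their wild-type CZ means had a median of 0.997 RPM, so the 61% of the CZ comparison is no measure for them. There GRMZM2G108032 changed by −2.26 on the log2 scale without a call (SE 0.70; edgeR, adjusted p = 0.239). GRMZM2G164440, with a higher CZ level, was called at −2.37 (SE 0.42; edgeR, adjusted p = 0.0483). Alternatives were DESeq2 1.42.0, other scalings, no filter, no fold cutoff, 1 model for all libraries, the replicate block and each library left out. Each group has 2 replicates.

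Names come from a RefSeq table (assembly Zm-B73-REFERENCE-NAM-5.0) with an entry for 112 of the 200, and from the authors' lists of miRNA pathway genes and targets. Gene lists are symbol patterns matched to symbols and synonyms. The genes and lists were chosen with earlier results of these data known. Named genes are the highest-ranked, named, highest in RPM, called and list genes, those at the last places, and overlapping neighbours; GRMZM2G140739, GRMZM2G480903, AC209206.3_FG004 and GRMZM2G009735 were singled out after their values were seen. Promoters were not analysed here. The 1 small RNA library was not used.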

Additional observations from a re-analysis of the deposited data

Results flagged for a closer look

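In 4 of the 15 rows called in P3, both *dcl1-2* libraries lay on one side of wild type there and on the other in the CZ. The difference between the tissues was not tested. How many of all genes have such a pattern was not counted, so nothing is read from the number of 4. GRMZM2G055435 was higher in *dcl1-2* P3 by 1.23 on the log2 scale and had 0.364 and 0.634 RPM in *dcl1-2* CZ against 0.857 and 1.16 RPM in wild-type CZ. GRMZM2G082855 was higher in P3 by 1.03 and had 0.889 and 1.07 RPM against 1.91 and 2.03 RPM in the CZ. GRMZM5G841915 was higher in P3 by 1.20 and had 0.202 and 0.238 RPM against 0.692 and 0.676 RPM in the CZ. GRMZM2G105348 had a log2 fold change of −4.07 in P3 and 1.49 and 1.11 RPM in *dcl1-2* CZ against 0.956 and 0.826 RPM in wild type. All 4 are low in the CZ, and the CZ change did not pass the test for any that was tested.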

How the results depend on the processing

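All 200 genes stayed higher in *dcl1-2* P3 than in *dcl1-2* CZ in every alternative run except without *dcl1-2* P3 replicate 2, which left 199 (range 199 to 200), and the count was 187 with 1 row per locus, an alternative added with the data in view. Upper-quartile scaling moved the median of all genes by 0.19. In P3, 8 were called higher and 7 lower, and the counts were 5 higher and 5 lower with all 8 libraries in 1 model, 28 higher and 10 lower by adjusted p alone, and 7 to 17 higher and 4 to 7 lower with single libraries left out. In the CZ the 2 lower calls became 8 with DESeq2, 22 without a filter, 18 with all 8 libraries in 1 model (where 1 was higher) and 1 to 21 with single libraries left out (0 to 1 higher). With the replicate block 10 were called lower in the CZ. Shares of all genes called were counted for the main setting and, in the CZ, for DESeq2 and no filter. The counts of calls under the other alternatives have no such background, and nothing is read from them about the 200. Same-numbered libraries had correlations of deviations of −0.01, 0.01 and 0.07 and share only a number. Of the 200, 96 stayed in the list with a pseudocount of 0.1 RPM and 104 with 10 RPM. Without the 10 genes of highest RPM the share of counts was 1.55% in wild-type P3, 1.68% in *dcl1-2* P3, 0.0422% in wild-type CZ and 0.0290% in *dcl1-2* CZ. With TMM scaling of all 200 it was 2.30% in wild-type P3, 2.50% in *dcl1-2* P3, 0.0761% in wild-type CZ and 0.0558% in *dcl1-2* CZ. Of 1095 values of named genes under alternatives, 1053 kept their side of the threshold, 16 lost it and 26 gained it. The promoter motifs planned were not run. In the CZ, 91 genes were left out by the filter of 1 RPM.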
